A study of Mus musculus with 6 samples.

Results

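The small leucine-rich proteoglycans (SLRPs) described here are the 10 genes *Bgn*, *Aspn*, *Dcn*, *Fmod*, *Omd*, *Prelp*, *Lum*, *Kera*, *Ogn* and *Podn*, out of 18193 genes measured in mouse ventricles. They were chosen by name, with earlier results of these data known. Their values came from the 21 probe sets, the sets of short probes on the array, that are annotated to exactly 1 of these symbols. All 10 were measured, with 1 to 6 probe sets each, and no filter on low values was applied. The question is which genes of the family differ between hearts with forced COUP-TFII expression and control hearts. Between these groups 6 of the 10 were higher and none was lower, where 14.9% of all genes were higher and 11.8% lower (26.7% in either direction). Of 7 other SLRPs and related genes measured, none was higher and 2 were lower.

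The 6 arrays came from the whole ventricles of 3 CTRL and 3 OE mice, each array from another male of mixed 129SvEv/C57Bl6/J background. CTRL mice carried *Myh6-MCM* (*Myh6-MerCreMer*), a Cre recombinase made in cardiomyocytes that acts once tamoxifen is given, and OE mice carried this Cre and the *CAG-S-COUP-TFII* allele, from which Cre switches on the nuclear receptor COUP-TFII. Every mouse, CTRL included, was given 40 mg tamoxifen per kg and day for 3 days, and ventricles were taken 16 days after the first dose. The age is 2.5 months in the labels, with treatment started at 2 months, while the array methods give 2 months. Both groups therefore share the Cre and the drug, and mice without either were not analysed here. Only cardiomyocytes make the Cre, whereas the RNA is that of all cells of the ventricle, so more cells of a type and more RNA per cell cannot be told apart in any value below.

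SLRPs are secreted proteins with a core of leucine-rich repeats, and most carry chains of chondroitin, dermatan or keratan sulfate. They sit on the surface of collagen fibrils, where they limit and space fibril growth and steer cross-linking, and several also bind growth factors of the TGF-β family or cell surface receptors. In the heart they are made mainly by fibroblasts, and their amount is known to change in fibrosis and heart failure. By structure *Bgn*, *Aspn* and *Dcn* belong to class I, *Fmod*, *Omd*, *Prelp*, *Lum* and *Kera* to class II, *Ogn* to class III and *Podn* to class V.

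Each value is a log2 intensity that the authors set relative to the median of the 6 arrays for that probe set, averaged here over the probe sets of a gene. Such values show how arrays differ and carry no expression level, so neither the amount of 1 SLRP against another nor the presence of a tissue marker can be read from them. For a single probe set whose groups do not overlap, the highest CTRL value and the lowest OE value lie at equal distances from 0 by construction. The log2 change is the OE mean minus the CTRL mean, SE is its moderated standard error, and adjusted p is that of limma over all genes, with 0.05 as the threshold. Arrays were at a root mean square distance of 0.194 to 0.233 from others of their group and of 0.375 to 0.427 from those of the other group. Of the 6 probe sets of *Nr2f2*, the gene of COUP-TFII, 1 was 11.2-fold higher in OE (log2 change 3.49, SE 0.13, adjusted p = 2.57e-05 over probe sets) and the others had log2 changes of −0.34 to −0.13 that did not pass the test.

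**Figure D1:**
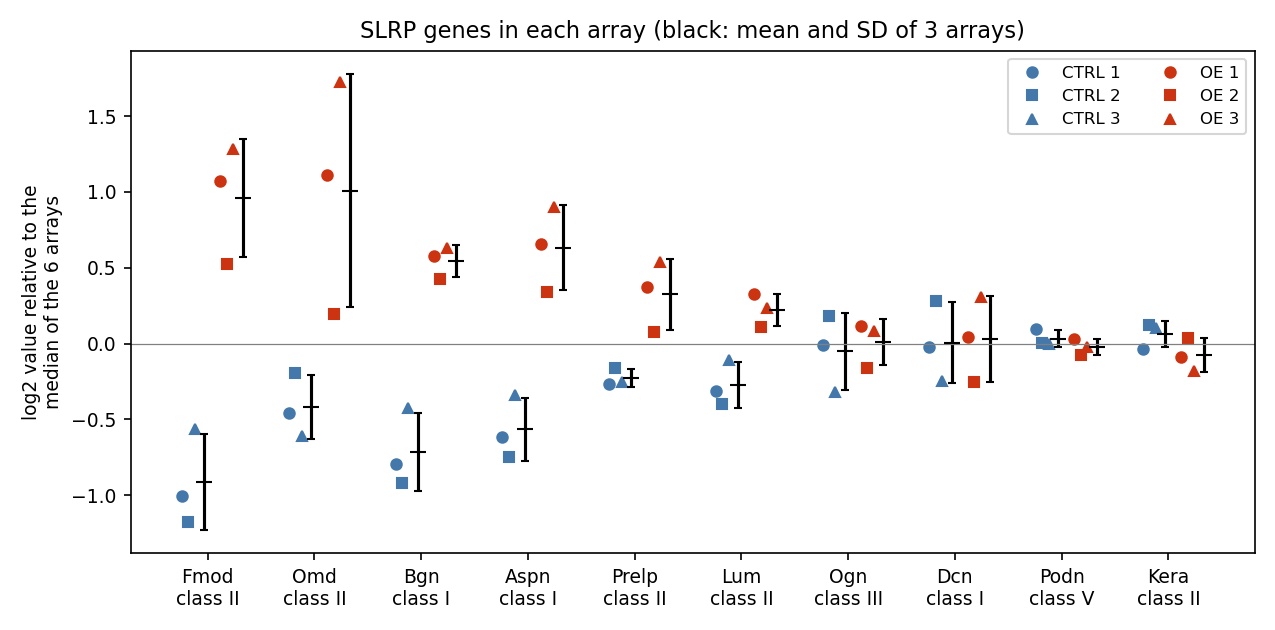
Log2 value of each SLRP gene relative to the median of the 6 arrays, with 1 symbol per array (CTRL blue, OE red) and the mean and SD of 3 arrays per group in black. *Fmod*, *Omd*, *Bgn*, *Aspn*, *Prelp* and *Lum* have all 3 OE arrays above all 3 CTRL arrays, and for *Ogn*, *Dcn*, *Podn* and *Kera* the groups overlap.

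In class I, *Bgn* and *Aspn* rose and *Dcn* did not pass the test. *Bgn* encodes biglycan, which carries chondroitin or dermatan sulfate chains, binds collagen and, when released, signals through Toll-like receptors. Its log2 values were −0.79, −0.92 and −0.43 in CTRL arrays 1 to 3 and 0.58, 0.43 and 0.63 in OE arrays 1 to 3. All OE arrays lay above all CTRL arrays, and the OE arrays spread less (SD 0.11) than the CTRL arrays (SD 0.26). *Bgn* was 2.39-fold higher in OE (log2 change 1.26, SE 0.13, 95% interval 0.96 to 1.56, adjusted p = 0.000773), the smallest adjusted p of the 10 genes. Its 3 probe sets were each called higher, with log2 changes of 1.06 to 1.42.

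*Aspn* encodes asporin, a class I protein without the usual chain attachment site that binds collagen and restrains TGF-β. In CTRL arrays 1 to 3 its log2 values were −0.61, −0.75 and −0.34, and in OE arrays 1 to 3 they were 0.65, 0.34 and 0.90. The groups did not overlap, and the order of the arrays within each group was the same as for *Bgn*. *Aspn* was 2.30-fold higher (log2 change 1.199, SE 0.16, 95% interval 0.84 to 1.56, adjusted p = 0.00175), and its 2 probe sets had log2 changes of 1.13 and 1.27. The one with 1.13, 1416652_at, was not called under one-way analysis of variance, the test named in the methods (adjusted p = 0.0652 over probe sets).

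*Dcn* encodes decorin, the closest relative of biglycan, which binds collagen, TGF-β and growth factor receptors. Its log2 values were −0.02, 0.28 and −0.25 in CTRL and 0.04, −0.26 and 0.31 in OE. The highest and lowest arrays of each group lay side by side, so the groups overlapped throughout. The log2 change was 0.03 (SE 0.17, 95% interval −0.37 to 0.42, adjusted p = 0.924), an interval of 0.774-fold to 1.34-fold. Both probe sets had changes near 0 and differed in spread. The log2 change of 1449368_at was −0.0043 (95% interval −0.25 to 0.24), while 1441506_at, with 0.60 in CTRL 2 and −0.52 in CTRL 3, had 0.06 (−0.60 to 0.71).

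In class II, 4 of 5 genes were higher, among them the largest rise of the family. *Fmod* encodes fibromodulin, a keratan sulfate proteoglycan that binds fibrillar collagen and guides its cross-linking by lysyl oxidase. The arrays gave log2 values of −1.004, −1.18 and −0.56 in CTRL and 1.07, 0.53 and 1.28 in OE. The lowest OE array stood 1.09 above the highest CTRL array. *Fmod* was 3.66-fold higher in OE (log2 change 1.87, SE 0.22, 95% interval 1.37 to 2.38, adjusted p = 0.00116). Among all genes it had the 48th largest rise, and 99.7% of genes had a smaller change.

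All 6 probe sets of *Fmod* were called higher, where 13.9% of all probe sets were higher and 10.4% lower, and their size varied from 2.51-fold to 7.49-fold. Of these, 5 end in _x_at, the suffix for probes that may also bind other transcripts. The remaining probe set, 1415939_at, gave a log2 change of 1.78 (SE 0.19, adjusted p = 0.000832 over probe sets), close to the mean of all 6. The largest, 1456084_x_at, gave 2.91 (SE 0.40), and its CTRL arrays ran from −2.34 to −0.70. With this probe set alone, the one with the largest variance, the gene's value is 2.91 in place of 1.87. Under one-way analysis of variance 1456084_x_at (adjusted p = 0.0549 over probe sets), 1437324_x_at (0.0510) and 1437685_x_at (0.0561) were not called.

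*Omd* encodes osteomodulin (osteoadherin), an acidic keratan sulfate proteoglycan known from bone matrix. Its log2 values were −0.46, −0.19 and −0.61 in CTRL and 1.11, 0.19 and 1.73 in OE. The OE arrays were far apart from each other (SD 0.77), and OE 2 stood only 0.39 above the highest CTRL array. *Omd* was 2.69-fold higher (log2 change 1.43, SE 0.34, 95% interval 0.65 to 2.21, adjusted p = 0.0184) on the evidence of 1 probe set. The call was lost without CTRL 1 (log2 change 1.41, adjusted p = 0.0557), without OE 1 (log2 change 1.38, adjusted p = 0.0616) and under one-way analysis of variance, the test named in the methods (0.118).

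*Prelp* encodes a protein with a basic end that binds heparan sulfate chains and links them to collagen. CTRL and OE were apart, with log2 values of −0.27, −0.16 and −0.25 in CTRL and 0.37, 0.07 and 0.53 in OE. The CTRL arrays lay close together (SD 0.06) and below every OE array, and OE 2 was again the lowest OE array. *Prelp* was 1.47-fold higher (log2 change 0.55, SE 0.12, 95% interval 0.29 to 0.82, adjusted p = 0.0120). Its probe sets differed in size, since 1416321_s_at rose with a log2 change of 0.78 (adjusted p = 0.0239 over probe sets) and 1416322_at had 0.33 (adjusted p = 0.0597). The call of 1416321_s_at was lost without CTRL 1 (adjusted p = 0.0702), CTRL 3 (0.0573) or OE 1 (0.0561) and under one-way analysis of variance (0.135). Without OE 2, 1416322_at was called higher (adjusted p = 0.0472). On 1416322_at alone, as when every _x_at and _s_at probe set was set aside, the gene's change was 0.33 (adjusted p = 0.0488).

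*Lum* encodes lumican, a keratan sulfate proteoglycan that sets the spacing of collagen fibrils in the cornea and is also made in the heart. Its log2 values were −0.31, −0.40 and −0.11 in CTRL and 0.32, 0.11 and 0.23 in OE, and no OE array lay below a CTRL array. *Lum* was 1.41-fold higher (log2 change 0.49, SE 0.10, 95% interval 0.27 to 0.72, adjusted p = 0.00939). Under one-way analysis of variance *Prelp* had an adjusted p of 0.0753 and *Lum* of 0.0580, so that under this test *Fmod*, *Bgn* and *Aspn* were the members called higher, where 7.9% of all genes were.

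*Kera* encodes keratocan, a keratan sulfate proteoglycan best known from the cornea. For this gene the log2 values were −0.04, 0.12 and 0.10 in CTRL and −0.09, 0.04 and −0.18 in OE. The groups overlapped, and the log2 change of −0.14 (SE 0.08, 95% interval −0.33 to 0.05) did not pass the test (adjusted p = 0.250).

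Neither *Ogn* of class III nor *Podn* of class V passed the test. *Ogn* encodes osteoglycin (mimecan), which is known in the heart for its relation to ventricular mass. Its log2 values were −0.01, 0.18 and −0.32 in CTRL and 0.11, −0.16 and 0.08 in OE. The CTRL arrays spanned the whole range of the OE arrays, and the log2 change was 0.06 (SE 0.14, 95% interval −0.25 to 0.38, adjusted p = 0.760). Its probe sets had changes of opposite sign, −0.08 and 0.20 (adjusted p = 0.763 and 0.266 over probe sets).

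*Podn* encodes podocan, a matrix protein of vessel walls and kidney that restrains growth of smooth muscle cells. Over all arrays its log2 values lay between −0.07 and 0.10, the narrowest range of the 10 genes. The log2 change was −0.05 (SE 0.07, 95% interval −0.21 to 0.10, adjusted p = 0.590), so a rise above 1.07-fold lies outside its interval.

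**Figure D2:**
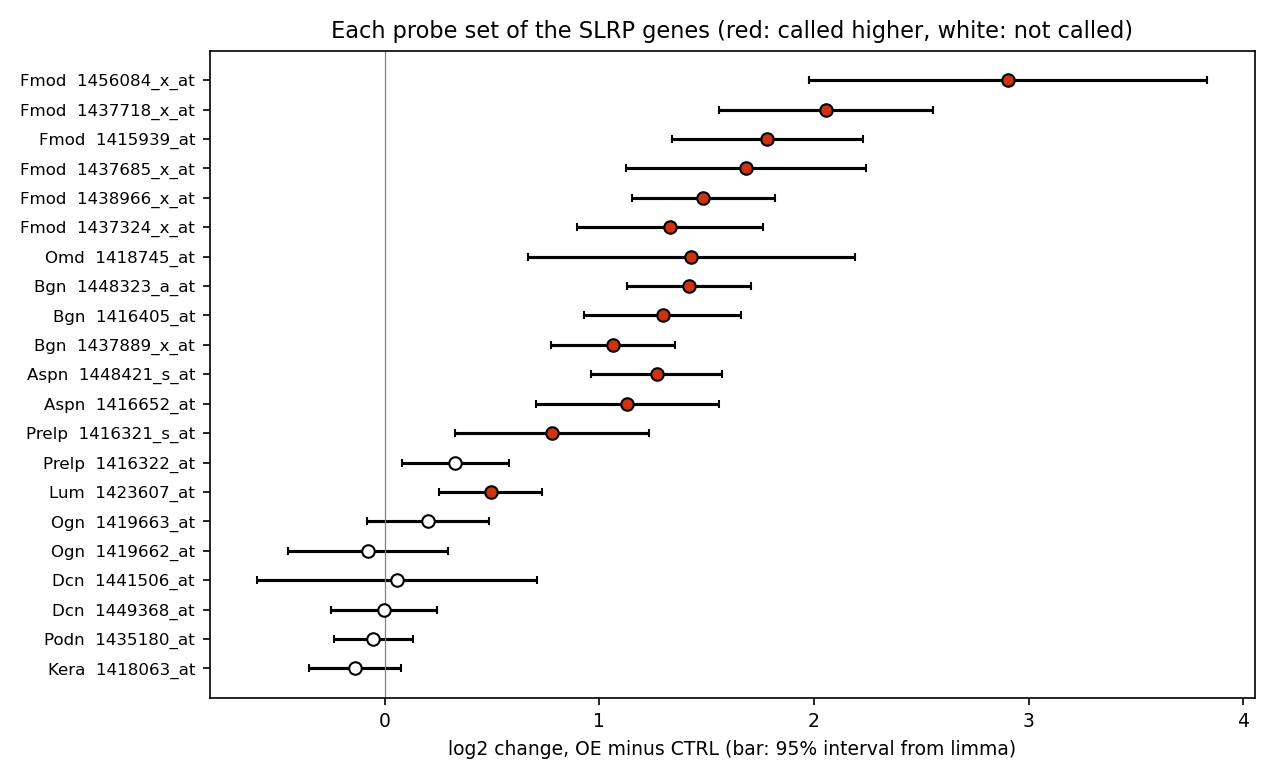
Log2 change (OE minus CTRL) of each of the 21 probe sets of the SLRP genes with its unadjusted 95% interval from limma, filled red where the adjusted p over probe sets was under 0.05. All probe sets of *Fmod*, *Bgn* and *Aspn* are called higher, *Prelp* has 1 called and 1 not called, and those of *Ogn*, *Dcn*, *Podn* and *Kera* sit around 0.

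The median log2 change of the 10 genes was 0.52, against −0.03 over all genes. All 6 called genes had 3 OE arrays above 3 CTRL arrays, which 22.0% of all genes had, and none of the 10 had all OE arrays below, as 23.6% of all genes did. Past a 2-fold rise, 4 members (*Fmod*, *Omd*, *Bgn* and *Aspn*) were called, where 1.64% of genes were. OE 2 was the lowest OE array for all 6 called members. Among all genes called higher, OE 2 was the lowest for 42.9%. CTRL 3 was the highest CTRL array for 4 of the 6 and CTRL 2 for the other two, *Omd* and *Prelp*, and over all genes called higher CTRL 3 was the highest for 46.0%.

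In falling order of their log2 change the genes were *Fmod*, *Omd*, *Bgn*, *Aspn*, *Prelp*, *Lum*, *Ogn*, *Dcn*, *Podn* and *Kera*. Neighbours in this order were compared by the difference of their values in each array, with an exact permutation test over the 6 arrays whose smallest possible p is 0.1. Of the 9 neighbouring pairs, only *Aspn* and *Prelp* had differences that did not overlap between OE and CTRL. Their log2 changes differed by 0.64 (95% interval 0.24 to 1.05, exact permutation p = 0.1, adjusted p = 0.8 over the 9 pairs). *Fmod* exceeded *Omd* by 0.44 (95% interval −0.59 to 1.48), *Omd* exceeded *Bgn* by 0.17 (−1.13 to 1.47) and *Bgn* exceeded *Aspn* by 0.06 (−0.24 to 0.36). The place of *Omd* among the leading 4 and the order of *Bgn* and *Aspn* are thus not fixed by these arrays. The spread also covered the step from *Lum* to *Ogn*, 0.43 (95% interval −0.22 to 1.09), between the lowest called and the highest uncalled gene. *Fmod* exceeded *Bgn* by 0.61 (95% interval 0.15 to 1.08) and *Aspn* by 0.67 (0.41 to 0.94), pairs chosen after their values were seen. Both had differences apart between OE and CTRL (exact permutation p = 0.1, adjusted p = 0.145 over all 45 pairs), which does not pass the threshold.

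Some other pairs away from this order were also chosen after their values were seen, because the proteins are close relatives. The log2 change of *Bgn* exceeded that of *Dcn* by 1.23 (95% interval 0.36 to 2.11), and that of *Aspn* exceeded *Dcn* by 1.17 (0.42 to 1.92). For both pairs the per-array differences of OE and CTRL were apart (exact permutation p = 0.1, the smallest possible, and adjusted p = 0.145 over all 45 pairs). *Fmod* and *Lum*, both keratan sulfate proteoglycans of class II that bind the same collagens, differed by 1.38 (95% interval 0.81 to 1.95) with the same p. *Lum* and *Dcn* differed by 0.47, within the spread (95% interval −0.29 to 1.23, exact permutation p = 0.2).

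Most SLRP genes lie beside each other in the mouse genome, and neighbours there did not always receive the same call. On chromosome 1 of GRCm38.p6 the order was *Optc*, *Prelp*, *Fmod* and then *Btg2*, which is no SLRP. Of the neighbours *Prelp* and *Fmod*, both called higher, *Fmod* had the larger change, by 1.32 (95% interval 0.70 to 1.94, exact permutation p = 0.1, adjusted p = 0.145 over 45 pairs), and *Optc* (opticin) had −0.27 (adjusted p = 0.0855). On chromosome 10 *Lum* was higher, while *Dcn* and *Kera* on either side of it did not pass the test, nor did *Epyc* (epiphycan) beyond *Kera* (log2 change 0.0033, adjusted p = 0.982). On chromosome 13 the order was *Ecm2*, *Aspn*, *Omd* and *Ogn*. There *Aspn* and *Omd* were higher, *Ecm2* (an SLRP-like matrix protein) was lower (log2 change −0.43, adjusted p = 0.0172), and *Ogn* did not pass the test. The changes of the neighbours *Omd* and *Ogn* differed by 1.37 (95% interval 0.33 to 2.41, exact permutation p = 0.1, adjusted p = 0.145 over 45 pairs). Since 0.1 is the smallest p of this test, no pair could pass the threshold. *Ecm2* lost its call without CTRL 2 (adjusted p = 0.0569) and under one-way analysis of variance (0.0789).

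**Figure D3:**
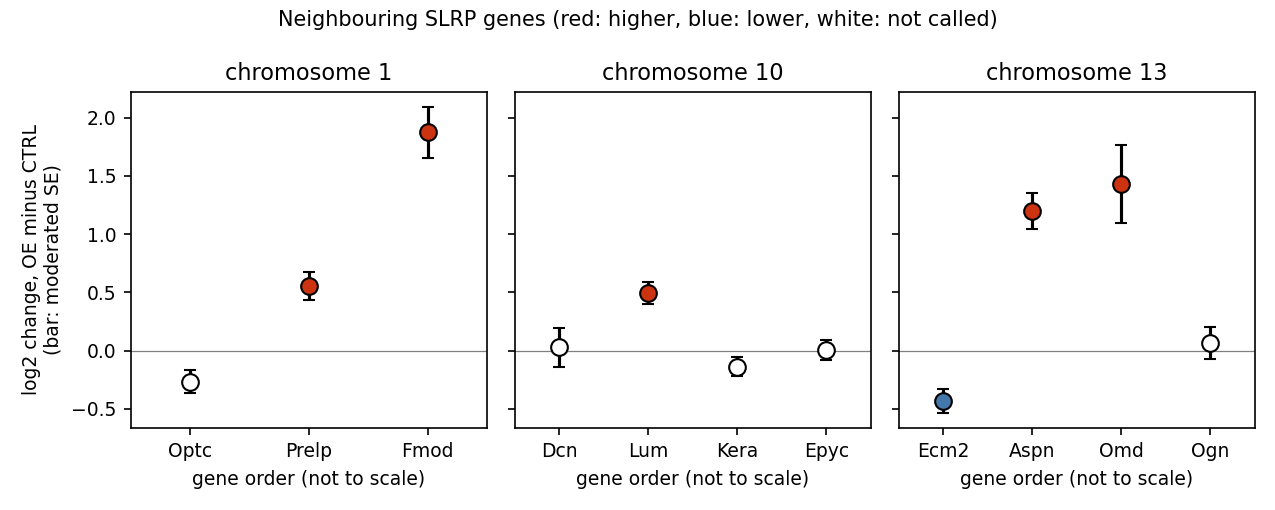
Log2 change (OE minus CTRL) of SLRP genes in their order along chromosomes 1, 10 and 13 (not to scale), with the moderated SE as bars and red for higher, blue for lower and white for not called. *Prelp* and *Fmod* are both higher on chromosome 1, *Lum* alone is called on chromosome 10, and *Ecm2* is lower beside the higher *Aspn* and *Omd* on chromosome 13.

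The 250 bases before the transcription start are printed for *Fmod*, the largest rise, and for the chromosome 13 neighbours *Aspn*, *Omd* and *Ogn*, of which the first pair rose and *Ogn* did not. The sequences are those of RefSeq on GRCm38.p6, which matched 8 of the 10 members and gave 9 windows. All 4 lie on the plus strand and run from 5′ to 3′ up to the base before the start, at chr1:134037004-134037253 for *Fmod*, chr13:49544193-49544442 for *Aspn*, chr13:49582212-49582461 for *Omd* and chr13:49607765-49608014 for *Ogn*. Capitals mark matches on either strand to AGGTCA, the hexamer that COUP-TFII and other nuclear receptors bind, GGAATG of TEAD factors, TATAAA of the TATA box or CCAAT of the CCAAT box.
Fmod: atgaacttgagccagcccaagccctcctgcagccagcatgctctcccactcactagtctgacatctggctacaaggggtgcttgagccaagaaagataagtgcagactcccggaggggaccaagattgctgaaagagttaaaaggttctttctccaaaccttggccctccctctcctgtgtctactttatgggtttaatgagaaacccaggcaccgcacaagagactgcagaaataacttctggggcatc
Aspn: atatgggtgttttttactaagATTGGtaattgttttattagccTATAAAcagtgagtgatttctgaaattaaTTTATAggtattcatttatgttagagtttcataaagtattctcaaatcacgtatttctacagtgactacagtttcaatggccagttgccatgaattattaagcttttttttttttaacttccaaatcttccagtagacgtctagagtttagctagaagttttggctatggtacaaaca
Omd: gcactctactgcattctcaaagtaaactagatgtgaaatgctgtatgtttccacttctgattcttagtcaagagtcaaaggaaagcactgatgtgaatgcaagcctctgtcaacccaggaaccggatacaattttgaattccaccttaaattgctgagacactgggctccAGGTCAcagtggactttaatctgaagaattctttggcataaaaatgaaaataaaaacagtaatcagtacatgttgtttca
Ogn: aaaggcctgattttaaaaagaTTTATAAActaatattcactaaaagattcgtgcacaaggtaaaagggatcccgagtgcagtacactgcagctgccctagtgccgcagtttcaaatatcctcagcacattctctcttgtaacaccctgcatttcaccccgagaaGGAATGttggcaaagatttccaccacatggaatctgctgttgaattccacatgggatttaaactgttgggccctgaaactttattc

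The window of *Fmod* held none of these motifs. That of *Omd* held AGGTCA at 80 to 75 bases before the start, and *Podn* held it on the minus strand in 1 of its windows (134 to 129 bases before). Thus 2 of the 9 windows of members had a match, where 14.0% of 32851 promoters of this length did. *Aspn* held TATAAA on the plus strand (207 to 202 bases before the start) and on the minus strand (178 to 173), and *Ogn* held it on both strands in overlap (229 to 222 bases before), where 12.4% of promoters had a match. *Ogn* also held GGAATG at 86 to 81 bases before the start, as 12.6% of promoters do. CCAAT was matched in *Aspn*, *Prelp* and *Kera* and in 33.8% of promoters, and neither TGANTCA of AP-1 (6.75% of promoters) nor the Smad palindrome GTCTAGAC (0.167%) was matched in any of the 9 windows. The share of G and C was 30% in *Aspn*, 38.4% in *Omd*, 42% in *Ogn* and 51.2% in *Fmod*, beside a median of 52.4% over all promoters. A match is a description of these letters and says nothing of binding.

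Over the 6 arrays, the genes whose values lay nearest to those of *Fmod* were *Ecrg4* (root mean square difference 0.153, log2 change 2.06), *Nupr1* (0.160, log2 change 1.82), *Nox4* (0.181, log2 change 1.93), *Slc2a1* (0.198, log2 change 1.56) and 2310030G06Rik (0.200, log2 change 1.79). All 5 were called higher, which follows from picking them by nearness to *Fmod* in the same arrays and is no test. *Nupr1* encodes a stress-induced nuclear protein, *Nox4* a NADPH oxidase and *Slc2a1* the glucose transporter GLUT1. No other SLRP was among the 5, and each of the others had a smaller log2 change than *Fmod*.

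Other genes that make, bind or cut SLRPs were taken from lists of their parts, with 100 genes measured in all. Of these 37 were higher and 6 lower in OE, where 14.9% of all genes were higher and 11.8% lower. With one-way analysis of variance 20 were higher, where 7.9% of all genes were. Each list count below is to be read beside these shares. Among the other SLRPs and related proteins none of 7 measured was higher, 2 were lower and 5 did not pass the test, with a median log2 change of −0.16. The lower ones were *Ecm2* and *Chadl* (chondroadherin-like, −0.48, adjusted p = 0.00641), and *Nepn* (nephrocan) had 0.19 without passing the test (adjusted p = 0.270).

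Enzymes of the chondroitin and dermatan sulfate chain, which biglycan and decorin carry, included 7 higher of 16 and none lower (median log2 change 0.17). The epimerases that turn chondroitin into dermatan sulfate led, with *Dse* at 1.29 (adjusted p = 0.00202) and *Dsel* at 0.61 (adjusted p = 0.000866). The dermatan 4-O-sulfotransferase *Chst14* followed at 0.48 (adjusted p = 0.00652), and the chondroitin synthase *Chsy1* at 0.53 (adjusted p = 0.0402), a call lost with the replicate block (adjusted p = 0.0702) and without any single array but CTRL 3 (adjusted p from 0.0627 to 0.119). The chondroitin sulfotransferases *Chst3* (0.18) and *Chst12* (−0.17) did not pass the test. Of 6 enzymes for the linker that joins the chain to the core protein 2 were higher, the galactosyltransferases *B4galt7* (0.41, adjusted p = 0.00611) and *B3galt6* (0.36, adjusted p = 0.0399, lost without any single array but CTRL 2), and *Pxylp1* (0.34) and *B3gat3* (−0.06) did not pass. Of 8 enzymes of the keratan sulfate chain, which *Fmod*, *Lum*, *Omd* and *Kera* products carry, none was higher and 1 was lower (median −0.04). The lower one was the sulfotransferase *Chst4* (−0.51, adjusted p = 0.00584), while *Chst5* (−0.34) and *Chst1* (−0.28) did not pass.

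Collagens and elastin, the fibres that SLRPs sit on, had the largest median of these lists, 0.76, with 10 of 14 higher and 1 lower. By one-way analysis of variance 5 were higher and 2 lower, where 7.9% of all genes were higher. Leaving out 1 array gave 7 to 10 higher and 0 to 1 lower. *Col5a2* (1.89, adjusted p = 0.00122), *Col3a1* (1.43, adjusted p = 0.00230) and *Col1a2* (1.29, adjusted p = 0.00421) rose, as did *Col11a1* (1.71, adjusted p = 0.0332), whose call was lost without any single array but OE 3 and whose change was 1.23 without OE 1. *Col2a1* of cartilage was lower (−0.29, adjusted p = 0.0177, lost without CTRL 1 or OE 1), and *Col6a2* had 0.43 (adjusted p = 0.0710, but 0.00678 without CTRL 3). Among enzymes that trim and cross-link collagen 7 of 14 were higher and none lower (median 0.24). The lysyl oxidases *Lox* (1.69, adjusted p = 0.000292), *Loxl3* (1.63, adjusted p = 0.000389) and *Loxl1* (1.08, adjusted p = 0.000876) and the procollagen enhancer *Pcolce* (0.99, adjusted p = 0.00133) rose, and *P4ha2* (−0.23) and *Loxl4* (−0.21) did not pass.

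Of 16 proteases known to cut SLRPs or the matrix around them 4 were higher and 1 lower (median 0.09). *Adamts1* (1.31, adjusted p = 0.000996), *Mmp2* (0.74, adjusted p = 0.0171), *Htra1* (0.61, adjusted p = 0.00641) and *Mmp3* (0.59, adjusted p = 0.0370) rose, *Adamts5* fell (−0.40, adjusted p = 0.0225) and *Tll2* had −0.21 without passing. The call of *Mmp2* was lost without any single array but CTRL 3 and OE 2 (highest adjusted p 0.0623), that of *Mmp3* without any but CTRL 1 and OE 2 (highest 0.109) and that of *Adamts5* without any but CTRL 1 and OE 3 (highest 0.0774). Of 20 receptors and ligands that SLRPs bind 7 were higher and 1 lower (median 0.20). Those that rose most were *Ccn4*, a matricellular protein that binds decorin and biglycan (1.78, adjusted p = 0.00124), the ligands *Tgfb2* (1.25, adjusted p = 0.00765) and *Tgfb3* (1.13, adjusted p = 0.00397), and *Cd14*, a co-receptor of Toll-like receptors (1.10, adjusted p = 0.00160). The lower gene was *Tgfb1*, a ligand of the same family (−0.25, adjusted p = 0.0414). No gene of the list was called lower under one-way analysis of variance, with the replicate block, with arrays centred on their own median, or without CTRL 2, OE 1, OE 2 or OE 3. The receptor genes *Kdr* (−0.63) and *Met* (0.37) did not pass, but *Kdr* was lower without CTRL 1 (−0.91, adjusted p = 0.0193) and under ribosomal centring (−0.85, adjusted p = 0.0194), and *Met* was higher on its probe set of largest variance (0.90, adjusted p = 0.0233). Leaving out 1 array gave 2 to 4 proteases higher and 0 to 2 lower (2 higher without CTRL 2, OE 1 or OE 3), and 0 to 3 receptors and ligands lower (3 without CTRL 1).

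Under one-way analysis of variance several genes named above lost their calls, namely *Col1a2* (adjusted p = 0.0569), *Col11a1* (0.158), *Chsy1* (0.154), *B3galt6* (0.128), *Tgfb2* (0.0752), *Tgfb3* (0.0542), *Htra1* (0.0541), *Mmp2* (0.104), *Mmp3* (0.151) and *Adamts5* (0.0903).

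**Figure D4:**
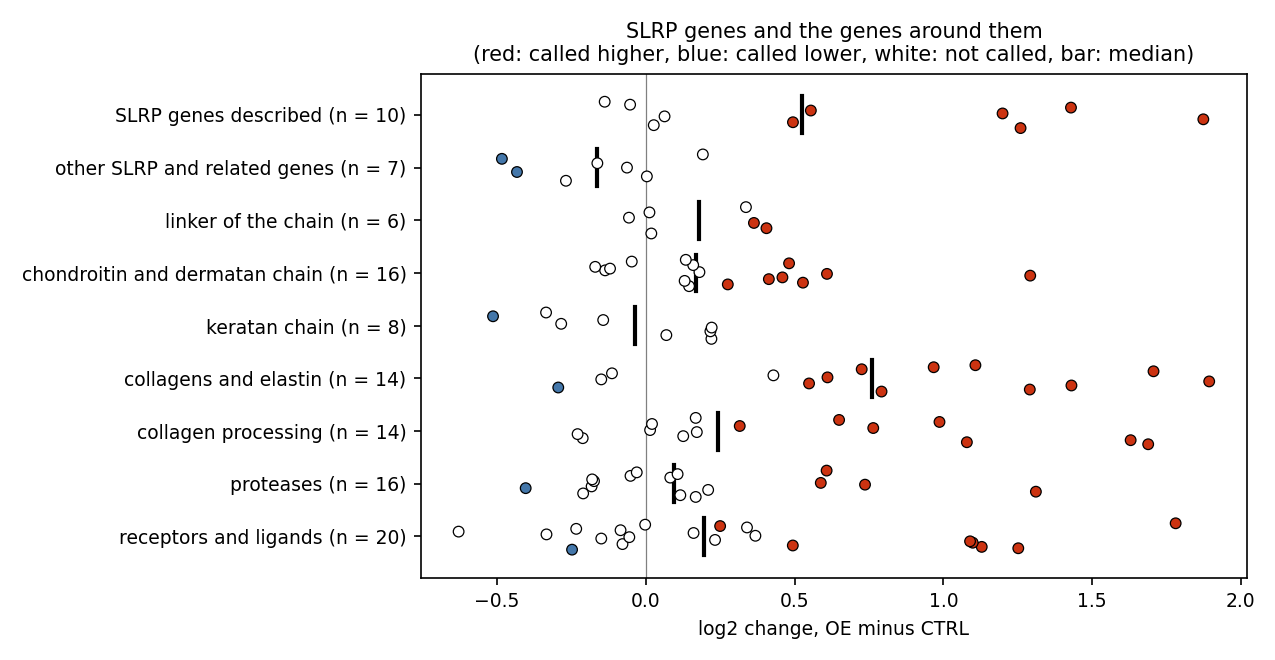
Log2 change (OE minus CTRL) of the SLRP genes and of each measured gene in the lists of related SLRPs, chain enzymes, collagens, collagen processing, proteases, and receptors and ligands, with red for called higher, blue for called lower, white for not called and a black bar at the median. The medians of the SLRP genes (0.52) and of the collagens and elastin (0.76) lie above those of the other lists, and no keratan chain enzyme is called higher in the main test drawn here.

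Marker genes of several cell types differed between the same arrays, where 14.9% of all genes were higher in OE and 11.8% lower. The mean of the 10 SLRP genes was −0.34 to −0.28 in CTRL and 0.12 to 0.55 in OE. Of 20 fibroblast markers 9 were higher and 5 lower, with list means of −0.33 to −0.06 in CTRL and 0.0028 to 0.20 in OE. *Mfap5* (1.81), *Col3a1* and *Col1a2* rose. *Scara5* (−1.21, adjusted p = 0.00860) and *Dpep1* (−0.64, adjusted p = 0.0324, lost without any single array but CTRL 1 and OE 1) fell. The 6 markers that did not pass the test included *Pdgfra* (0.15) and *Tcf21* (0.24), which were named after their values were seen. The fibroblast markers called lower were 2 without OE 2 and 3 without OE 3, and under one-way analysis of variance 4 were higher and 2 lower, with *Scara5* (adjusted p = 0.0793) and *Dpep1* (0.143) no longer called. Of 15 markers of activated fibroblasts 14 were higher, with list means of −1.32 to −0.68 in CTRL and 0.77 to 0.96 in OE. *Comp* (3.68), *Cilp* (3.36), *Timp1* (3.26) and *Cthrc1* (3.24) led, and *Fap* had 0.12 without passing (adjusted p = 0.299). The fibroblast lists share collagen genes, *Lox* and *Pcolce* with the lists above. Marker lists of other cells also reuse genes of earlier lists, among them *Cd14* (macrophages), *Kdr* (endothelium), and *Comp* and *Col2a1* (tendon, cartilage and valve).

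Among markers of other cells, 8 of 16 for macrophages were higher (means −0.30 to −0.13 in CTRL and 0.03 to 0.38 in OE), 7 of 14 for endothelium were lower (0.15 to 0.32 and −0.22 to −0.02), and 9 of 16 for cardiomyocytes were lower and 2 higher (0.13 to 0.20 and −0.22 to −0.16). Of 10 mural cell markers 4 were higher and 5 lower, of 11 for tendon, cartilage and valve 2 and 2, of 10 for mesothelium and epicardium 2 and none, and of 10 for lymphocytes and neutrophils none and 1. Over all genes 14.9% were higher and 11.8% lower. Several of these marker counts moved by over 1.5 times with the setting. Macrophage markers called higher were 5 on leaving out CTRL 1, CTRL 2, OE 2 or OE 3 and 2 under one-way analysis of variance, and endothelial markers called lower were 4 without OE 2 and 2 under that test. Centring on ribosomal genes gave 5 macrophage markers higher and 12 endothelial markers lower, where 7.2% of all genes were higher and 50.7% lower. Cardiomyocyte markers called higher were 1 in place of 2 without any single array but CTRL 2. The part of these cell types in the rise of the 6 SLRP genes was not tested.

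Of 43 ribosomal protein genes 16 were called higher and 1 lower in OE, beside 14.9% and 11.8% of all genes. Their median log2 change was 0.21. Centring each array on them moved the median of all genes from −0.03 to −0.25, and with it 7.2% of genes were higher and 50.7% lower. On that scale the 6 called SLRP genes were still called higher, with log2 changes of 1.66 for *Fmod*, 1.21 for *Omd*, 1.04 for *Bgn*, 0.98 for *Aspn*, 0.34 for *Prelp* and 0.28 for *Lum*. *Podn* (−0.27, adjusted p = 0.0149) and *Kera* (−0.36, adjusted p = 0.0166) were then called lower, beside the all-gene median of −0.25, and *Dcn* (−0.19) and *Ogn* (−0.15) changed sign without passing the test. Among the other genes named above, *B4galt7* (adjusted p = 0.0797), *B3galt6* (0.319), *Chsy1* (0.111) and *Mmp3* (0.0787) lost their calls on that scale.

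**Figure D5:**
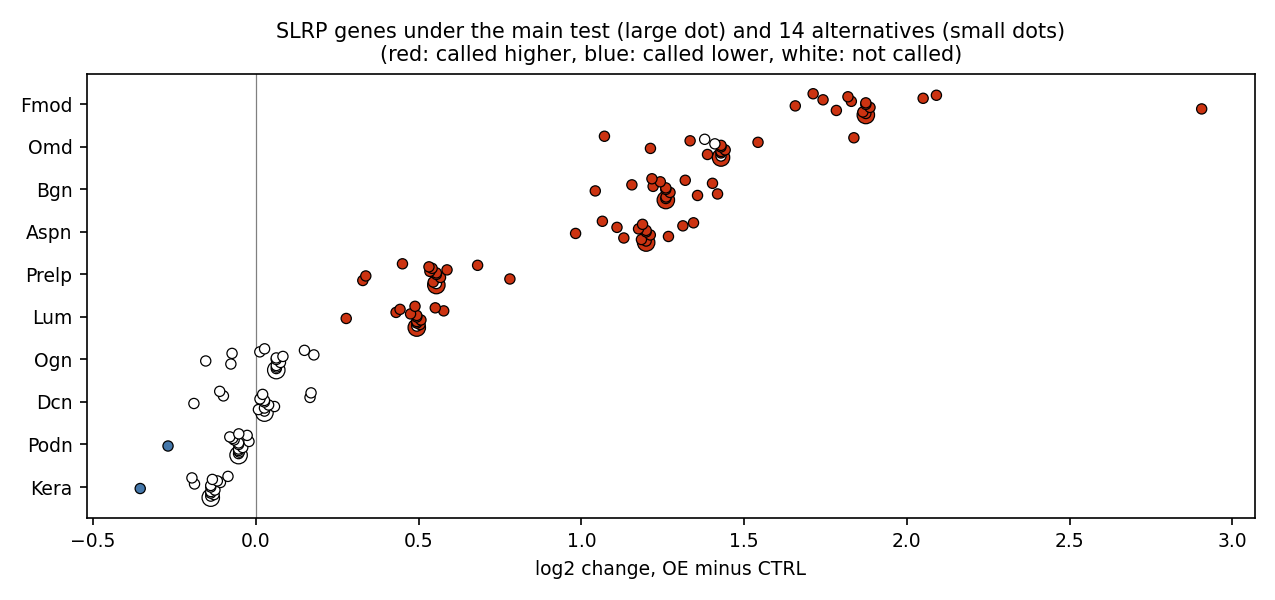
Log2 change (OE minus CTRL) of each SLRP gene under the main test (large dot) and 14 alternative settings (small dots), with red for called higher, blue for called lower and white for not called. *Fmod*, *Omd*, *Bgn*, *Aspn*, *Prelp* and *Lum* stay above 0 in every setting drawn, *Ogn* and *Dcn* lie on both sides of 0, and the blue dots of *Podn* and *Kera* come from centring on ribosomal protein genes.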

How the data were processed

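Whole ventricles of 3 CTRL and 3 OE mice were measured on 6 Affymetrix GeneChip Mouse Genome 430 2.0 arrays. The authors summarized the arrays by RMA in GeneSpring GX, with quantile normalization and a baseline at the median of all samples, with versions not given in the sources used here. Their deposited numbers, from −4.29 to 3.54, were read as log2 values as RMA returns, although no source states the base. Each probe set has a median of 0 over the arrays (within 5e-07), so a value is a difference and holds no level or depth. The number of arrays limits the precision.

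Of 45101 probe sets, 932 name several symbols, 9211 have no gene here and 13 are controls with 1 symbol. The remaining 34945 gave 18193 genes, and probe sets of a gene were averaged. Symbols were updated through RefSeq, where 162 gene IDs had no entry. OE was set against CTRL with limma 3.58.1 (lmFit, eBayes; R 4.3.3), two-sided, without covariates, with Benjamini-Hochberg adjustment over all genes or all probe sets. The analysis of variance named in the methods was run as an alternative, since limma steadies the variance estimated from 3 arrays per group. Differences between 2 members were tested by exact permutation over arrays (SciPy 1.17.1), with an interval from the t distribution. The script was tested on simulated data.

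Members and gene lists were chosen with earlier results of these data known. The lists cover related SLRPs, chain enzymes, collagens, collagen processing, proteases, receptors and ligands, and markers of 9 cell types. Named genes are all members, up to 4 called genes of largest change and up to 2 not called or opposed genes per list, and the 5 genes nearest to *Fmod*, and most marker lists are given by counts. *Epyc* and *Btg2* are named as genome neighbours, and *Pdgfra*, *Tcf21* and *Tgfb1* were named outside this rule after their values were seen. Motifs were searched on both strands of RefSeq promoter windows (GRCm38.p6). Alternatives were array weights, one-way analysis of variance, robust eBayes (added after seeing the data), other probe set choices, other centring, the replicate block, leaving out each array and a limit of 1.2-fold. A filter on level was not possible.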

Additional observations from a re-analysis of the deposited data

How the results depend on the processing

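Under array weights, robust eBayes, both probe set choices, both centrings, the replicate block and the 1.2-fold limit, 6 SLRP genes were called higher. Under one-way analysis of variance it was 3, without *Omd* (log2 change 1.43, adjusted p = 0.118), *Prelp* (0.55, adjusted p = 0.0753) and *Lum* (0.49, adjusted p = 0.0580), and the other pathway genes called higher were 20 in place of 37. With arrays centred on ribosomal protein genes, 2 SLRP genes were lower, *Podn* (−0.27) and *Kera* (−0.36), and 34 other pathway genes in place of 6. On that scale 50.7% of all genes were lower. That centring reversed *Ogn* (−0.15), *Dcn* (−0.19), their probe sets 1419663_at (−0.014) and 1441506_at (−0.16), *Chst3* (−0.037), *Fap* (−0.10) and *Nepn* (−0.025), since it subtracts 1 amount from every log2 change. The probe set of largest variance also reversed *Ogn* (−0.077) and *B3gat3* (0.0425). For the analysis of variance and the probe set choice the cause was not tested.

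Leaving out 1 array gave 5 to 6 SLRP genes higher and none lower, and 28 to 33 other pathway genes higher and 3 to 7 lower (3 without OE 1). The log2 change of *Omd* ran from 1.07 to 1.84, of *Ogn* from −0.073 to 0.18 and of *Dcn* from −0.11 to 0.17. Probe sets 1441506_at (−0.21 to 0.35), 1449368_at (−0.076 to 0.11) and 1419662_at (−0.25 to 0.081) and *Chst3* (−0.0011 to 0.30) also crossed 0, as did the differences *Omd* minus *Bgn* (−0.15 to 0.52), *Bgn* minus *Aspn* (−0.025 to 0.15), *Prelp* minus *Lum* (−0.039 to 0.16), *Ogn* minus *Dcn* (−0.020 to 0.14) and *Dcn* minus *Podn* (−0.059 to 0.23). With the replicate number as a block, 6 SLRP genes were higher (*Omd* adjusted p = 0.0337) and 33 other pathway genes higher and 5 lower. Same-numbered arrays did not deviate together (r = 0.0697, −0.117 and 0.0253, and 2 of 6 arrays matched best by their own number). The labels give them only a shared number, and 3 arrays per group cannot exclude a pairing. With 3 arrays per group, members that missed the threshold may still differ within the intervals given.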
